A study of Rattus norvegicus with 18 samples.

Results

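The B cell identity and receptor genes are 9 genes: Cd79a, Cd79b, Ms4a1, Cd22, Blk, Pax5, Blnk, Cr2 and Tnfrsf13c. They were chosen by name, by no threshold on measured values, but with earlier results of these data known. Probes were assigned to them when the transcript accession of the array file carried the member's symbol in RefSeq, and 6 of the 9 matched, each through 1 probe, among 13652 named genes tested. The probes were those for Cd79b (A_43_P15598), Cd22 (A_44_P250467), Blk (A_44_P356391), Pax5 (A_64_P064099), Blnk (A_44_P144741) and Cr2 (A_44_P508580). Cd79a, Ms4a1 and Tnfrsf13c were not analysed here. All 6 probes gave Cy5 and Cy3 signals well above background on all 18 arrays. The probes of Cd37 and Cd72, other surface proteins of B cells, did so in Cy5, the channel checked for them.

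The study compared the responses of rat strains to procainamide, an antiarrhythmic drug that can provoke lupus-like autoimmunity. Blood RNA of male rats was compared in 4 groups: Brown Norway (BN) rats given 40 mg/kg procainamide (n = 4), BN rats given sterile water (n = 4), Sprague Dawley (SD) rats given 40 mg/kg procainamide (n = 5) and SD rats given sterile water (n = 5). BN is an inbred strain and SD an outbred stock. Blood was drawn from the venous sinus of the eye when treatment ended, and the rats' age and the length of treatment are not given in the sources used here. On each 2-colour array the Cy5 dye carried the sample, and Cy3 carried the RNA labelled as control replicate 1 of the same strain. The array of control replicate 1 therefore sets an RNA against itself by the labels, which should give ratios near 0. The values do not bear this out. The SD of log2 ratios was 0.409 on BN control replicate 1, against 0.333 to 0.459 on the other BN controls. On SD control replicate 1 it was 0.252, against 0.205 to 0.285 on the other SD controls. On BN control replicate 1 the P2rx5 ratio was 1.02 and the median of 7 erythroid genes 1.44. The reason was not tested. The labels do not say that each array is a separate animal, so the p-values reflect spread among samples that may be technical.

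The 4 BN procainamide arrays were on slide 3 and scanned on day 1, and the 4 BN control arrays on slide 2, scanned on day 2. The 5 SD control arrays and SD procainamide replicates 1 to 3 were on slide 1 (day 1), and SD procainamide replicates 4 and 5 on slide 2 (day 2). Slide and treatment therefore cannot be told apart within BN, and slide and strain cannot be told apart among the controls. No slide held procainamide arrays of both strains. A scan-day effect can be estimated only through the SD procainamide arrays. SD procainamide replicate 3 stood apart from the other SD arrays, with the widest spread of log2 ratios (SD 0.489), and results that rest on it are given with and without it. Median Cy5 signals were 1694 to 3187 on BN procainamide arrays and 997 to 1986 on BN control arrays, and 1446 to 2876 on SD arrays. The share of probes well above background was 73.5% to 87.2% per array, and no spot was saturated.

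B cells recognise antigen through a membrane immunoglobulin whose signal is carried by the Cd79a and Cd79b chains. The Src-family kinase Blk phosphorylates these chains, and the adaptor Blnk brings the phospholipase Plcg2 to the activated kinase Syk. Cd22, a sialic-acid-binding lectin, dampens the signal, while Cr2 (complement receptor CD21), which binds fragments of complement C3, lowers the amount of antigen needed. Pax5 is the transcription factor that keeps cells committed to the B lineage. In whole blood, fewer B cells and less RNA per B cell cannot be told apart.

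Promoters are shown for the measured members that the RefSeq promoter table held, since Cr2 was the 1 member called in a drug comparison, and Cd22 and Blnk are the receptor and the adaptor set against it below. The table held promoters of 5 of the 9 genes: Cd79a, Cd22, Blnk, Cr2 and Tnfrsf13c. Each sequence runs 5′ to 3′ on the gene's own strand, the minus strand for all 3, over 300 bases of build GRCr8, and capitals mark the octamer motif. Cr2 lies at chr13:109244457-109244756, Cd22 at chr1:95259681-95259980 and Blnk at chr1:249770484-249770783.
Cr2: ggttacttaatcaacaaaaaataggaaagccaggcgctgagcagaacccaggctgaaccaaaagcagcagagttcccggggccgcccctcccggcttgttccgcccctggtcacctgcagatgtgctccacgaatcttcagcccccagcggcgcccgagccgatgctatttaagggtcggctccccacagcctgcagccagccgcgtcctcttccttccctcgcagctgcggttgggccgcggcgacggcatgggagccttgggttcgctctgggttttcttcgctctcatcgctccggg
Cd22: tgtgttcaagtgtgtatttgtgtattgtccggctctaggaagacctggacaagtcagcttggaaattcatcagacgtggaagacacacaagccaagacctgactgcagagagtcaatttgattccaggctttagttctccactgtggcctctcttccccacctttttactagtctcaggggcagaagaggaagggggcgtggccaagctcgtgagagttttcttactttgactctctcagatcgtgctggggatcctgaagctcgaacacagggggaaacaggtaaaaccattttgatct
Blnk: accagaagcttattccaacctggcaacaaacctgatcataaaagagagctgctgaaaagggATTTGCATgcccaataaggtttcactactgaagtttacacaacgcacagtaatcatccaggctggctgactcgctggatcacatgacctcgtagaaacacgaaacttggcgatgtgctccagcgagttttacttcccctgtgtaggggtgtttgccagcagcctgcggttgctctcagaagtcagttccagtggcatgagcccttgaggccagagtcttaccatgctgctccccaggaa

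The octamer ATGCAAAT, bound by the factors Pou2f1 and Pou2f2, was searched on both strands. It occurred in 1 of the 5 member promoters, that of Blnk, in reverse orientation at bases 62 to 69 of the window. Of the 33465 promoters in the table, 1.78% held it. A motif of the factor EBF1, TCCC and GGGA with any 2 bases between them, was in 0 of the 5 and in 0.834% of the table, and GAGGAAGT, a motif of the factor PU.1, was in 0 of the 5 and in 2.42%. No overlaps between these motifs arose in the member promoters, where only the 1 match was found.

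In BN blood, Cr2 transcript was lower on procainamide than on control arrays, which were on different slides. The log2 ratios of the other receptor genes lay lower by smaller amounts that did not pass the test. Of the 6 members, 1 was called lower and 0 higher by limma with Benjamini-Hochberg adjustment over 26496 probes, where 14.1% of all probes were called lower and 7.67% higher. At an unadjusted p under 0.05 the count was 2. The differences were negative for 5 of 6 members with a median of -0.30 on the log2 scale, and the median over all named genes was -0.02. In 3 of the 6 genes (Cd79b, Blnk and Cr2) the ratio on every BN procainamide array lay below that on every BN control array. Of all probes, 12.4% had that pattern. In log2 Cy5 alone the Cd79b and Blnk groups overlapped.

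Cr2 had log2 Cy5 over Cy3 ratios of -0.91, -0.83, -0.52 and -0.51 on the BN procainamide arrays, against -0.18, -0.01, -0.03 and 0.12 on the BN control arrays. The groups did not overlap, and BN procainamide replicates 1 and 2 were lowest. Their means were -0.69 ± 0.21 and -0.02 ± 0.13 (SD, n = 4 each). The difference was -0.67 ± 0.16 (SE), a 1.59-fold lower level, with a 95% interval of -0.99 to -0.34 and a limma adjusted p of 0.00582.

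The Cr2 difference was partly in the reference channel. Cr2 gave a log2 Cy3 signal of 14.26 ± 0.05 on BN procainamide arrays and 14.01 ± 0.05 on BN control arrays (SD, n = 4 each), although the labels give both the same RNA. Loess divides its correction between the channels. In Cy5 alone it was 13.57 ± 0.17 on BN procainamide arrays and 13.99 ± 0.10 on BN control arrays, a difference of -0.42 with a limma adjusted p of 0.0180. A fit with scan day as a term gave a ratio difference of -0.54 ± 0.26 (SE) and a limma adjusted p of 0.415, or -0.80 and 0.0845 without SD procainamide replicate 3, and with median centring in place of loess it was -0.47 with an adjusted p of 0.0662.

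Cd79b, the signalling chain of the receptor, had ratios of -0.77, -0.47, -0.45 and -0.25 on BN procainamide arrays, against -0.16, -0.08, -0.06 and 0.05 on BN control arrays. All 4 procainamide arrays were below all 4 controls, and the lowest was replicate 1. The difference of -0.42 ± 0.22 (SE) did not pass the test, with a limma adjusted p of 0.187 and a 95% interval of -0.88 to 0.04. Blnk, the adaptor, had ratios of -0.39, -0.18, -0.16 and 0.04 on BN procainamide arrays, against 0.04, 0.13, 0.11 and 0.37 on BN control arrays. Its highest procainamide array and its lowest control array both rounded to 0.04, so the groups only just separated. The Blnk difference of -0.33 ± 0.14 (SE) had a limma adjusted p of 0.104. In log2 Cy5 alone the groups of both genes overlapped. Cd79b was at 15.43 to 15.77 on BN procainamide arrays and 15.71 to 15.95 on BN control arrays. Blnk was at 13.41 to 13.82 and 13.57 to 13.94 on these arrays. As for Cr2, mean log2 Cy3 was higher on BN procainamide than on BN control arrays. It was 16.09 and 15.89 for Cd79b, and 13.76 and 13.53 for Blnk.

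The kinase Blk, the lectin Cd22 and the factor Pax5 had overlapping groups in BN. Blk ratios were -0.66, -0.05, -0.06 and -0.08 on BN procainamide arrays, against 0.09, 0.07, -0.15 and 0.21 on BN control arrays, so that only procainamide replicate 1 lay outside the control range. Its difference was -0.27 (95% interval -0.70 to 0.16, limma adjusted p = 0.381). Cd22 ratios ranged from -0.30 to 0.14 on BN procainamide arrays, against -0.02 to 0.32 on BN control arrays, a difference of -0.15 (95% interval -0.53 to 0.24, limma adjusted p = 0.610). Its mean log2 Cy5 was 13.5 on BN procainamide and 13.48 on BN control arrays, and its mean log2 Cy3 13.57 and 13.4. Pax5, read from a single spot per array, ranged from -0.25 to 0.40 on BN procainamide arrays and from -0.60 to 0.77 on BN control arrays. Its control range was the widest of the 6 genes in BN, and the Pax5 difference of 0.09 had a 95% interval of -0.36 to 0.55 (limma adjusted p = 0.799).

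**Figure D1:**
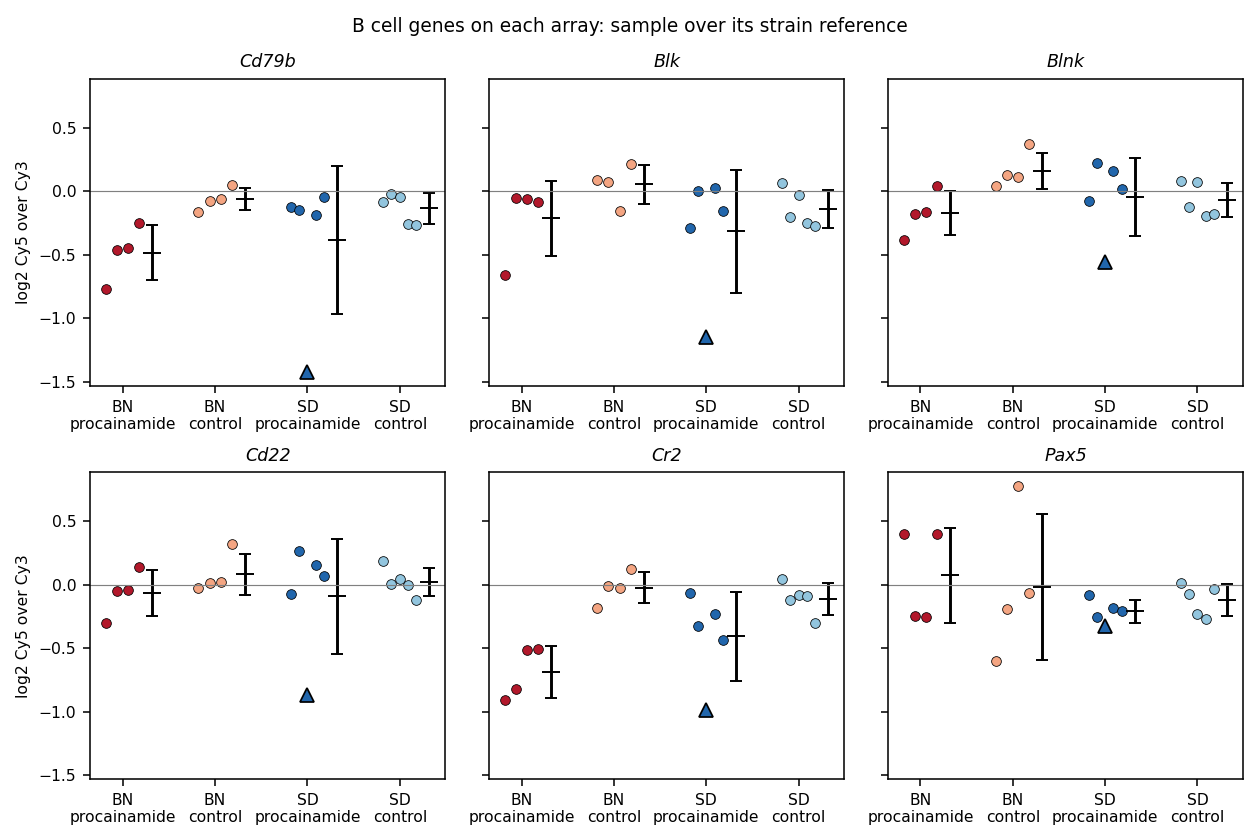
Log2 Cy5 over Cy3 ratios of the 6 measured B cell genes on each of the 18 arrays (points), with group means and SDs (bars), in the order BN procainamide, BN control, SD procainamide and SD control. The triangle is SD procainamide replicate 3, which lies below the other SD arrays in every panel, by little in Pax5, and the BN groups are fully separate for Cr2 at -0.51 or lower against -0.18 or higher.

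Since most of the receptor genes had somewhat lower ratios on BN procainamide arrays, Cr2 was also set against the mean of Cd79b, Cd22, Blk and Blnk on the same array, a comparison chosen after the values were seen and given with no test. Cr2 minus that mean was -0.38, -0.64, -0.34 and -0.47 on the BN procainamide arrays, against -0.17, -0.04, -0.0049 and -0.11 on the BN control arrays. The 2 BN groups did not overlap, at -0.46 ± 0.13 and -0.08 ± 0.07 (SD, n = 4 each). In SD it was 0.08, -0.41, 0.01, -0.27 and -0.40 on procainamide arrays, against -0.02, -0.04, -0.09, 0.08 and -0.09 on control arrays. Of the 5 SD procainamide arrays, 3 lay below all SD controls and the other two, replicates 1 and 3, within the control range.

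**Figure D2:**
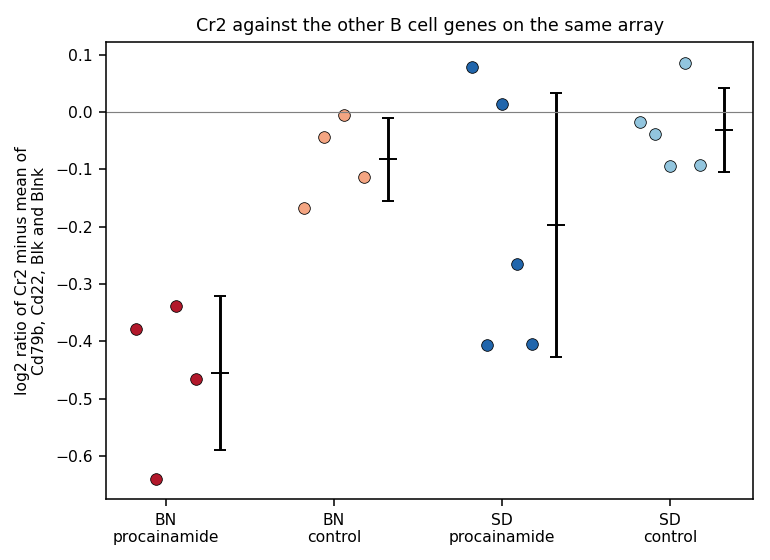
Log2 ratio of Cr2 minus the mean log2 ratio of Cd79b, Cd22, Blk and Blnk on the same array (points), with group means and SDs (bars). BN procainamide arrays lie between -0.64 and -0.34, below BN control arrays at -0.17 to -0.0049, and SD procainamide arrays spread from -0.41 to 0.08.

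In SD blood no member passed the test, and the lower means came largely from 1 array. Of the 6 members 0 were called by limma in either direction, where 2.74% of all probes were, and 1 (Cr2) had an unadjusted p under 0.05. In 0 of the 6 were the SD groups separate, against 7.53% of all probes. Cr2 ratios were -0.07, -0.32, -0.99, -0.23 and -0.44 on SD procainamide arrays, against 0.04, -0.13, -0.08, -0.09 and -0.30 on SD control arrays. Replicates 2, 3 and 5 lay below every control. The Cr2 difference was -0.30 ± 0.14 (SE), with a limma adjusted p of 0.289 and a 95% interval of -0.59 to -0.0032.

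Cd79b ratios were -0.13, -0.15, -1.42, -0.18 and -0.05 on SD procainamide arrays, against -0.09, -0.02, -0.05, -0.26 and -0.27 on SD control arrays. Apart from replicate 3, the procainamide arrays lay inside the control range. Blk was at -1.15 on replicate 3 and at -0.29 to 0.02 on the other SD procainamide arrays, against -0.27 to 0.06 on SD controls. Likewise Cd22 was at -0.87 on replicate 3 and Blnk at -0.55. Pax5 was at -0.33 there, within reach of the -0.26 to -0.08 of the other SD procainamide arrays.

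With all arrays the SD differences were -0.25 for Cd79b, -0.18 for Blk, 0.02 for Blnk, -0.12 for Cd22 and -0.09 for Pax5, with limma adjusted p-values of 0.565 to 0.955. Without replicate 3 they were 0.0088 for Cd79b, 0.03 for Blk, 0.15 for Blnk, 0.08 for Cd22 and -0.06 for Pax5. Cr2 was then at -0.15 with a limma adjusted p of 0.531. Within slide 1 alone, which held 3 procainamide and 5 control arrays, Cr2 was at -0.35 (adjusted p = 0.399) and Cd79b at -0.43 (adjusted p = 0.479). Without replicate 3, which left 2 procainamide arrays on that slide, Cr2 was at -0.08 (adjusted p = 0.810) and Cd79b at -0.0023 (adjusted p = 0.996).

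On SD procainamide replicate 3 other blood cell genes also stood apart. The median log2 ratio of 11 neutrophil genes was -0.75 there and -0.42 to 0.24 on the other SD procainamide arrays, and that of 7 erythroid genes was 0.43 there and -0.79 to -0.12 on the others. Over 14 marker lists, of B cells, other blood cells and follicular dendritic cells, 8 had their lowest SD procainamide median on this array and 2 their highest. The members' median was -0.93 on it and -0.10 to -0.07 on the other SD procainamide arrays. The part of cell composition or RNA quality in these values was not tested.

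The drug responses of the strains were then compared directly. For the BN response minus the SD response, 0 of 6 members were called by limma (11.1% of all probes were) and 0 had an unadjusted p under 0.05. The response of Cr2 was more negative in BN by -0.37 (95% interval -0.81 to 0.07, adjusted p = 0.271) and that of Blnk by -0.36 (adjusted p = 0.247). Without SD procainamide replicate 3, Cr2 was at -0.51 ± 0.15 (SE, limma adjusted p = 0.0415) and Blnk at -0.48 ± 0.15 (SE, adjusted p = 0.0459). Both were then called, where 11.2% of all probes were, and Cd79b was at -0.43 (adjusted p = 0.0553). With that array left out and scan day as a term as well, Cr2 was at -0.72 and Blnk at -0.46, each with an adjusted p of 0.9998. Whether the Cr2 responses of the strains were called different thus depended on that array and on the scan-day term.

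Averaged over both strains, Cr2 was lower on procainamide arrays by 0.48 on the log2 scale (SE 0.10, limma adjusted p = 0.00537). Of the 6 members 1 was called lower and 0 higher, against 7.9% and 5.7% of all probes. The BN part of this average, -0.67, cannot be told apart from slide. The SD part was -0.30, and -0.15 without SD procainamide replicate 3. This average uses the same arrays as the per-strain values above and adds no new samples. Left out in turn, none of the 18 arrays ended the call, with values of -0.52 to -0.41 and limma adjusted p-values of 0.00242 to 0.0140. Leaving out single arrays cannot separate slide from treatment. Without SD procainamide replicate 3 and with a scan-day term, a fit chosen after seeing the data, the average was -0.44 (limma adjusted p = 0.00573). The SD part was -0.08 in that fit, so most of this average was the BN part. Over 15 alternatives, scan day as a term among them, the average was -0.54 to -0.34 with limma adjusted p-values of 0.00215 to 0.0461. Cd79b averaged -0.34 (SE 0.15, adjusted p = 0.143) and the other members between -0.22 and 0.00047.

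**Figure D3:**
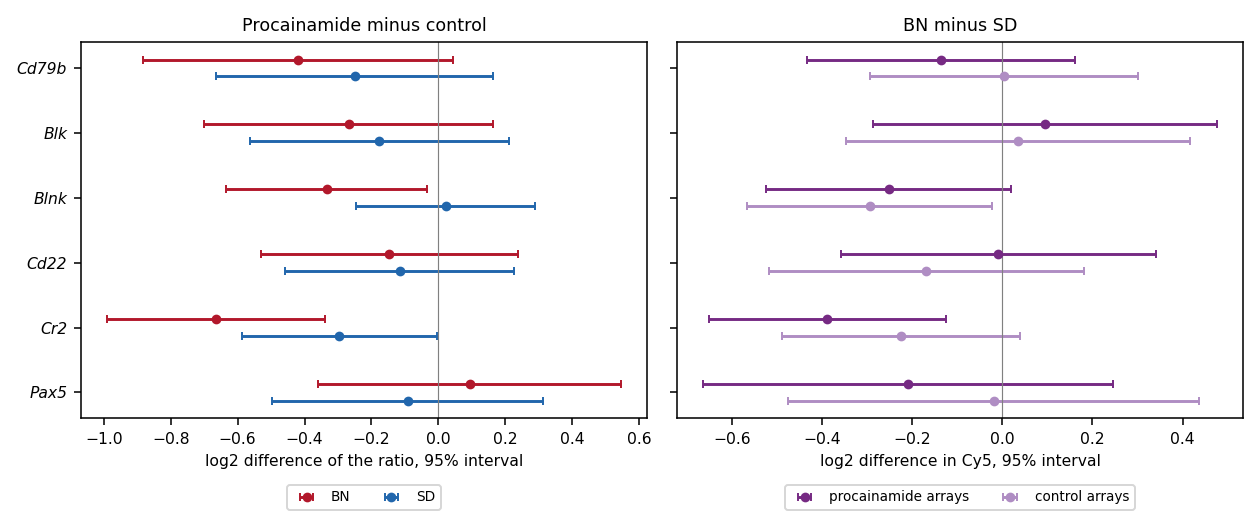
Fitted log2 differences with 95% intervals for the 6 B cell genes: procainamide minus control within BN and within SD (left, ratio scale), and BN minus SD on procainamide and on control arrays (right, Cy5 scale). On the left, the intervals of Cr2 in both strains and of Blnk in BN exclude 0 before adjustment, and after adjustment the Cr2 difference of -0.67 in BN is the 1 called on that side.

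Apart from Pax5, the genes varied together from array to array within groups. For each gene the group mean was subtracted from each array's log2 ratio, and these deviations were correlated over the 18 arrays, which share each array's reference, labelling and brightness. Among Cd79b, Cd22, Blk, Blnk and Cr2 the 10 pairwise Pearson correlations were 0.78 to 0.96 (Spearman 0.56 to 0.95). Without SD procainamide replicate 3 (n = 17) they were 0.44 to 0.94. Pax5 gave correlations of -0.20 to 0.16 with the other five genes, and of -0.48 to 0.12 without that array. BN procainamide replicate 1 was, after SD procainamide replicate 3, the array on which these genes were jointly low, with Blk at -0.66.

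**Figure D4:**
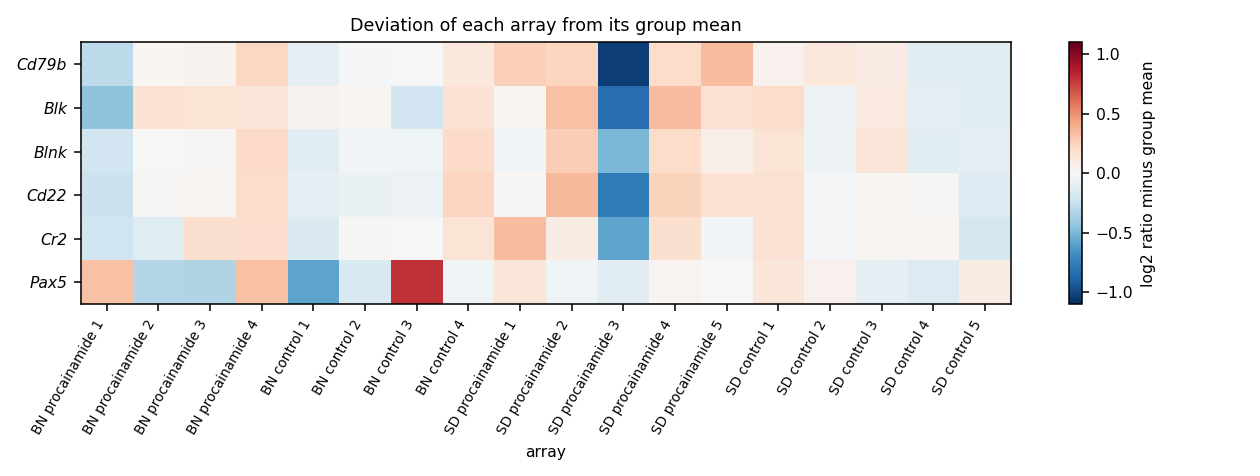
Deviation of each array's log2 ratio from its group mean, for the 6 B cell genes (rows) and 18 arrays (columns); red is above and blue below the group mean. SD procainamide replicate 3 is blue in all rows, most deeply in Cd79b, and the Pax5 row follows a pattern of its own, with BN control replicate 3 at a ratio of 0.77.

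The named genes whose deviations most resembled the members' mean deviation were ranked by Pearson r among 13646 genes. Plcg2, the phospholipase that Blnk recruits, came first at r = 0.95 over 18 arrays, followed by Bcar3 (0.93), Cbfa2t3 (0.91), Apbb3 (0.91) and Traf4 (0.91). Fgd2, Kxd1, Map4k1, Sash3 and Dctn1 completed the 10 at 0.91 to 0.89. Without SD procainamide replicate 3, Plcg2 ranked 5th at r = 0.86 and Naa35 came first at 0.93, a gene ranked 5489 with all arrays. Of the 50 genes most alike, 2 were among the 58 measured genes of the wider B cell lists. The ranking describes these arrays and carries no p-value.

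Strain differences were read from the Cy5 channel, since the Cy3 references of BN and SD are different RNA. The BN controls were on slide 2 and the SD controls on slide 1, so strain and slide cannot be told apart there. The SD reference itself differed between these slides, most for Blnk among the 6 members and little for Cd79b and Pax5. Its log2 Cy3 for Blnk was 14.03 ± 0.04 on slide 1 and 13.72 ± 0.06 on slide 2 (SD, n = 8 and 2). For Cd79b it was 16.04 on slide 1 and 16.06 on slide 2, and for Pax5 10.82 and 10.79. Among untreated rats 0 of 6 members differed by limma, where 38.5% of all probes did, and 1 (Blnk) had an unadjusted p under 0.05. Log2 Cy5 levels of Cr2 were 13.99 ± 0.10 in BN controls and 14.22 ± 0.12 in SD controls (SD, n = 4 and 5), a difference of -0.23 with a limma adjusted p of 0.164. Those of Blnk were 13.69 ± 0.17 in BN controls and 13.99 ± 0.14 in SD controls, a difference of -0.29 with an adjusted p of 0.0811. Cd79b averaged 15.83 in both, and its difference of 0.0044 had a 95% interval of -0.29 to 0.30. For Blk (0.03), Cd22 (-0.17) and Pax5 (-0.02) the limma adjusted p-values were 0.441 to 0.951.

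Under procainamide, Cr2 was lower on the BN than on the SD arrays, which shared no slide. Its log2 Cy5 level was 13.57 ± 0.17 on BN procainamide arrays and 13.96 ± 0.28 on SD procainamide arrays (SD, n = 4 and 5), and the groups overlapped through SD procainamide replicate 3 at 13.52. The difference was -0.39 ± 0.13 (SE, limma adjusted p = 0.0377), and 1 of 6 members was called, lower, where 20% of all probes were called and 11.7% called lower. Without that replicate Cr2 was at -0.50 (adjusted p = 0.00466) and Cd79b at -0.30 (adjusted p = 0.0184), 2 called, where 19.4% of all probes were. Under a scan-day term Cr2 kept its size at -0.40, but its limma adjusted p was 0.0936, and with that term and without SD procainamide replicate 3 it was at -0.62 (adjusted p = 0.00612). It also missed the threshold without BN procainamide replicate 1 or 2, and without SD procainamide replicate 1, 2, 4 or 5.

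**Figure D5:**
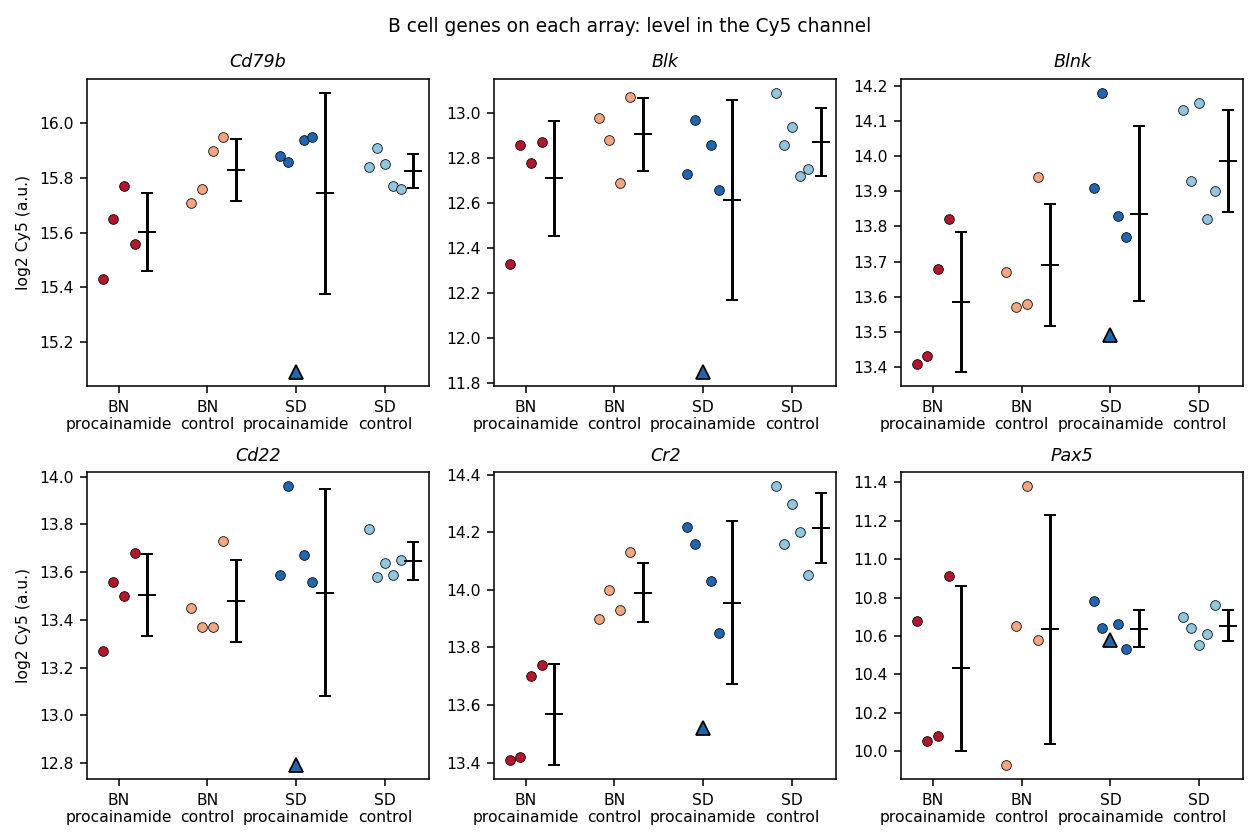
Log2 Cy5 levels (arbitrary units) of the 6 B cell genes on each array (points), with group means and SDs (bars); each panel has its own axis, since levels of different probes are not comparable. The BN procainamide arrays are lowest for Cr2 at 13.41 to 13.74, where the triangle, SD procainamide replicate 3, lies at 13.52 among them.

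In BN procainamide blood, 8 of the 58 measured genes of the 6 wider B cell lists were called higher (13.8%) and 4 lower (6.9%), where 7.67% and 14.1% of all probes were. The others did not pass the test. Of 16 measured B cell surface receptors 2 were called lower and 1 higher, of 11 transcription factors 1 lower and 1 higher, and of 14 genes of the receptor's signalling chain 2 higher. P2rx5, a purine receptor, was lower by -0.88 ± 0.13 (SE, limma adjusted p = 0.000273), with ratios of 0.49, 0.20, 0.19 and 0.09 on BN procainamide arrays against 1.02, 1.07, 1.14 and 1.27 on BN control arrays. Cd24, a surface glycoprotein of young B cells and other blood cells, was lower by -1.16 ± 0.18 (SE, adjusted p = 0.000318). Its ratios were -1.12, -1.91, -1.08 and -0.99 on BN procainamide arrays against -0.28, -0.09, -0.09 and -0.02 on BN control arrays. In both genes the groups did not overlap. Ccr6, a chemokine receptor of B and T cells, was higher by 0.63 (limma adjusted p = 0.0115), and its groups overlapped.

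The factor Bcl11a was lower by -0.43 and Irf8 higher by 0.54 in BN procainamide blood. Of the signalling genes, the adaptor Dapp1 was higher by 0.45 and the inhibitory phosphatase Inpp5d by 0.39. In the BAFF and APRIL axis, the survival ligands of B cells and their signalling, 1 of 6 was higher, the inhibitor of apoptosis Birc3 by 0.61. Among 6 measured plasma cell genes 3 were higher: Xbp1 by 0.84, Sdc1 by 0.83 and Derl3 by 0.85. The BN groups were separate for Sdc1 but overlapped for Xbp1 and Derl3, as they did for Irf8. Derl3 ratios were 0.07 and 0.09 on BN procainamide replicates 1 and 3, below the 0.16 of BN control replicate 2. These serve secretion and stress handling in plasma cells (Xbp1, Derl3) or mark their surface (Sdc1), and other cells express them too. Of 5 precursor genes 1 was lower, the recombinase subunit Rag1 by -0.67, dim and above background on 3 of the 4 BN procainamide arrays. The limma adjusted p-values of these 9 genes were 0.0012 to 0.0211, and the call of Irf8 ended in 4 of the 8 fits that left out a BN array. When scan day entered the fit, Birc3 and Cd24 stayed past the threshold, 2 of the 12 genes named in this comparison, and with array brightness as a term 2 did (Cd24 and P2rx5). In a fit of only the BN groups 8 of the 12 did, without Xbp1, Derl3, Ccr6 and Irf8.

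In SD blood 1 of the 58 list genes was called (1.72%, where 2.74% of all probes were), the ligand Tnfsf13 (APRIL), lower by -0.68 ± 0.16 (SE, limma adjusted p = 0.0321). It missed the threshold in 7 of the 10 fits that left out an SD array, with adjusted p-values of 0.0402 to 0.0876 over the 10, and also with scan day or brightness as a term. The BN and SD responses differed by limma for 6 of the 58, or 10.3%, near the 11.1% of all probes: P2rx5 (-1.01), Cd24 (-0.85), Ccr6 (0.78), Inpp5d (0.50), Xbp1 (1.01) and Rag1 (-0.74), with adjusted p-values of 0.00242 to 0.0307. None of these 6 passed under a scan-day term (0 of 6), nor with brightness as a term. With each array left out in turn, Ccr6 passed in 10 of 18 fits, Cd24 in 16, Rag1 in 17 and the others in all 18. As the mean of its 2 probes Inpp5d missed the threshold. Averaged over strains, Cd24 (-0.73), P2rx5 (-0.38), Fcrla (-0.36) and Bcl11a (-0.25) were called lower. Cd38 (0.34), Irf8 (0.41), Dapp1 (0.29), Bcl10 (0.18), Birc3 (0.46), Nfkb2 (0.28) and Sdc1 (0.54) were called higher. Together 11 of 58 list genes were called, 12.1% higher and 6.9% lower, where 5.7% and 7.9% of all probes were. Of the 18 fits that left out 1 array, Bcl11a passed in 7, Fcrla and Nfkb2 in 8 each and Bcl10 in 11, and the other seven passed in all 18. Under a scan-day term 5 of the 11 stayed past the threshold (Birc3, Cd24, Dapp1, Irf8 and Sdc1).

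Between untreated BN and SD blood, 10 of the 58 list genes were called higher and 11 lower, 36.2% in all, near the 38.5% of all probes. Strain and slide cannot be told apart in these differences. The factor Bach2 was 4.55-fold higher in BN controls (log2 2.19 ± 0.38, SE, limma adjusted p = 0.000356). Fcer2, the low-affinity IgE receptor CD23, was lower by -0.71 (adjusted p = 0.00063), the kinase Map3k14 by -0.74 and Inpp5d by -0.47. Irf4 and Prdm1, factors of plasma cell formation, were higher by 0.89 and 0.82. Under procainamide 10 of the 58 were called (17.2%, where 20% of all probes were). Bach2 (2.06), Irf4 (1.00), Prdm1 (0.88) and Fcer2 (-0.62) were among them. Among controls P2rx5, Cd83, Pik3cd, Ptpn6, Igll1 and Rag1 were also higher, and Ccr6, Bcl11a, Ikzf1, Btk, Tnfsf13 and Traf2 lower. The other called genes under procainamide were Dapp1, Pik3ap1, Inpp5d and Xbp1, higher, and Cd24 and Bcl11a, lower. With 1 array left out, Ikzf1 passed in 1 of 9 fits among controls and Inpp5d in 4 of 9 under procainamide. As the mean of its 2 probes Inpp5d missed the threshold in both strain comparisons. Under a scan-day term Fcer2 alone of the 18 genes named among controls stayed past the threshold. Of the 10 named under procainamide 8 did, without Inpp5d and Xbp1.

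Markers of other blood cells moved beside Cr2 in BN, and their part in its decrease was not tested. Of 7 platelet genes 4 were called lower with a median of -0.59, where 14.1% of all probes were called lower. Of 7 erythroid genes 1 was called lower with a median of -0.39, and that shift rested on BN control replicate 1. The erythroid median ratio was -2.23 to -0.15 on BN procainamide arrays, against 1.44 on BN control replicate 1 and -2.07 to -1.04 on the other BN controls. The difference between the mean array medians was -0.41 with that control and 0.33 without it. T cell genes (2 of 14 called higher, where 7.67% of all probes were, median 0.23), NK cell genes (2 of 9, median 0.26) and monocyte genes (2 of 10, median 0.10) lay on the other side. For monocyte genes that side rested on BN control replicate 3. Their difference between the mean array medians was 0.06 with that control and -0.06 without it. Of 11 neutrophil genes 2 were higher and 1 lower (median 0.62). Their array medians overlapped, at -0.27 to 0.64 on BN procainamide arrays and -0.51 to 0.03 on BN control arrays. Those of the NK cell genes overlapped too, at -0.32 to 0.62 on BN procainamide arrays and -0.47 to 0.06 on BN control arrays. The summed Cy5 signal of the T cell list was 290300 to 307400 on BN procainamide arrays and 245500 to 270000 on BN control arrays. That of the platelet list was 69720 to 100300 on BN procainamide arrays and 88770 to 123300 on BN control arrays. Cr2 is also carried by follicular dendritic cells, which are not blood cells. Of the 4 listed genes of these cells, 3 were above background on all 18 arrays and Fdcsp on 3 of 18. The median ratio of the 3 was -1.04 to -0.31 on BN procainamide arrays and -0.30 to 0.34 on BN control arrays, so it lay lower beside Cr2. Of the 3, 1 was called lower in BN, Madcam1 by -0.99 (limma adjusted p = 0.00444). Cxcl13, a chemokine that attracts B cells, was at -0.85 (adjusted p = 0.100), and Clu was at 0.0077.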

How the data were processed

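Whole-blood RNA of 18 samples was hybridised to 2-colour Agilent arrays with 62976 spots, and per the file headers Feature Extraction 10.7.1.1 gave, for both channels, each spot's median intensity and its background, not normalized. Per the file headers that software also wrote processed signals, corrected for background and dye, and the log10 ratio of Cy5 to Cy3. The deposited matrix of 25602 probes holds log2 ratios whose scale, centring and direction are unstated. Each of its columns lay on a line of slope near 1 (r at least 0.9993) against the scanner's ratios as log2 of Cy5 over Cy3, so no centring of genes was found; its probe filter is not given in the sources used here.

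Analysis started from the median intensities in R 4.3.3 with limma 3.58.1. Background was corrected by normexp (offset 50), ratios by loess within arrays with control spots at weight 0, and Cy5 additionally by Aquantile. Flagged spots were left out (0.0741% of probe values had no other spot and kept it), and spots of a probe were averaged. Of 30367 probes, 18355 had 1 RefSeq symbol, 0 several and 12012 none; the 26496 whose Cy5 exceeded background clearly (the scanner's flag) on 4 or more arrays were tested. A mean per group was fitted over all 18 arrays (14 residual degrees of freedom, eBayes, 2-sided), with Benjamini-Hochberg adjustment over all probes tested and a threshold of 0.05. Drug effects used log2 ratios and strain effects log2 Cy5. Array signal stood 27.3 to 48.8 times above background, and the number of arrays, 4 or 5 a group, limits the precision. The fit was tested on simulated data with known changes.

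The members and lists were chosen with earlier results of these data known. Besides the members, up to 4 called genes of smallest p per list and comparison are named, and the 10 genes most like the members. Replicate numbers were not taken as pairs in the main fit. Alternatives covered background, normalization, filters, channel, scan day, brightness, array weights, a replicate block and each array left out.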

Additional observations from a re-analysis of the deposited data

Results flagged for a closer look

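Dixon's test at the 95% level was applied to 48 groups of values (6 genes, 4 groups of arrays, ratio and Cy5 level) and marked 7, where chance marks about 5% of groups. SD procainamide replicate 3 was far from the other SD procainamide arrays in the ratios of Cd79b (-1.42) and Blk (-1.15), and in their log2 Cy5 levels (15.09 and 11.85). BN procainamide replicate 1 was far from its group in Blk, with a ratio of -0.66 and a log2 Cy5 level of 12.33. BN control replicate 4 was far from its group in Cd22, with a ratio of 0.32.

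The BN and SD drug responses differed by limma's interaction term for 6 of the 58 measured genes of the wider lists, 10.3% against 11.1% of all probes, so the share is near that of all probes. It was called for 0 of the 6 members. The BN response minus the SD response was -1.01 for P2rx5, -0.85 for Cd24, 0.78 for Ccr6, 0.50 for Inpp5d, 1.01 for Xbp1 and -0.74 for Rag1. The part of slide and scan day in these differences was not tested beyond the fits with a scan-day term.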

How the results depend on the processing

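Cr2 kept its negative BN difference under all 16 alternatives and all 8 fits without a BN array (-0.84 to -0.42), and passed the threshold in 13 of the 16 and in 8 of 8. The members called lower in BN were 0 with scan day as a term (Cr2 -0.54, limma adjusted p = 0.415), 0 with median centring in place of loess (-0.47, adjusted p = 0.0662), and 0 without SD procainamide replicate 3 and with scan day as a term (-0.80, adjusted p = 0.0845), the last chosen after seeing the data, as was the fit on SD slide 1 alone. The averaged Cr2 response was called under all 15 alternatives and without any 1 of the 18 arrays, but its BN part cannot be told apart from slide in any of these fits. For the BN minus SD response 0 to 2 members were called lower as arrays were left out, the 2 without SD procainamide replicate 3, where 11.2% of all probes were called. In BN against SD controls 1 (Blnk) was called lower when only those groups were fitted, and 0 to 1 as arrays were left out, the 1 without BN control replicate 4. In BN against SD procainamide 0 were called lower with scan day as a term and 0 when only those groups were fitted (Cr2 adjusted p = 0.125), and 0 to 2 as arrays were left out. No member was called higher under any alternative, and fitting only the groups compared changes nothing for the 2 contrasts that already use all groups. The causes were not tested.

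The sign of small differences turned as follows; those of members were uncalled on both sides, and Ikzf1 and Traf2 had been called. Under a scan-day term the sign turned in the BN drug response Cd79b (0.031), Cd22 (0.19) and Blk (0.14), in the SD drug response Blnk (-0.068), in the BN minus SD response Cd79b (0.46), Cd22 (0.44) and Blk (0.49), in BN against SD controls Cd79b (-0.33), Blk (-0.21), Pax5 (0.052) and Ikzf1 (0.20), in BN against SD procainamide Cd22 (0.057). That term is estimated through SD procainamide replicate 3 among others, and without this array the BN drug response stayed negative for Cd79b (-0.40), Cd22 (-0.13) and Blk (-0.19), as did the BN minus SD response for Cd79b (-0.40), Cd22 (-0.20) and Blk (-0.19). Without both arrays of control number 1 the sign turned in the BN drug response Pax5 (-0.10), in the BN minus SD response Pax5 (-0.041), in the averaged response Pax5 (-0.079), in BN against SD controls Pax5 (0.23). With array weights, the sign turned in the BN drug response Pax5 (-0.082), in the SD drug response Cd22 (0.0066), in the BN minus SD response Pax5 (-0.015), in the averaged response Pax5 (-0.074), in BN against SD controls Pax5 (0.074). In Cy5 alone the sign turned in the BN drug response Cd22 (0.024) and Pax5 (-0.20), in the SD drug response Blnk (-0.15), in the BN minus SD response Cd22 (0.16), Blk (0.061), Pax5 (-0.19) and Blnk (0.042), in the averaged response Pax5 (-0.11). With median centring the sign turned in the BN drug response Cd22 (0.089), in the SD drug response Blnk (-0.012), in the BN minus SD response Cd22 (0.24) and Blk (0.19), in the averaged response Pax5 (-0.0037). On SD slide 1 alone the sign turned in the SD drug response Blnk (-0.068), and there without SD procainamide replicate 3, also chosen after seeing the data, Cd22 (0.072). Without SD procainamide replicate 3 and with scan day as a term the sign turned in the SD drug response Cd22 (0.072), in BN against SD controls Cd79b (-0.070), Pax5 (0.10), Cr2 (0.024), Ikzf1 (0.19) and Traf2 (0.044), in BN against SD procainamide Blk (-0.14). With the scanner's processed signals the sign turned in the BN minus SD response Blk (0.017), in BN against SD controls Cd79b (-0.14), Blk (-0.089) and Pax5 (0.18). With the deposited matrix the sign turned in the BN minus SD response Blk (0.017). With brightness as a term the sign turned in BN against SD procainamide Blk (-0.029). With Cy5 scaled to the 75th percentile the sign turned in BN against SD procainamide Cd22 (0.00082). Leaving out each array in turn gave both signs in the BN drug response Pax5 (-0.10 to 0.36), in the SD drug response Blnk (-0.045 to 0.15), Cd79b (-0.33 to 0.0088), Cd22 (-0.20 to 0.080) and Blk (-0.26 to 0.033), in the BN minus SD response Pax5 (-0.0076 to 0.45), Cd22 (-0.23 to 0.059) and Blk (-0.30 to 0.056), in the averaged response Pax5 (-0.10 to 0.13), in BN against SD controls Pax5 (-0.27 to 0.22), Cd79b (-0.035 to 0.045) and Blk (-0.021 to 0.11), in BN against SD procainamide Cd22 (-0.19 to 0.10) and Blk (-0.10 to 0.22).

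Over all probes, the BN drug calls numbered 5768, against 211 with scan day as a term, 685 with brightness as a term and 10160 in Cy5 alone. The SD drug calls numbered 727, against 254 with scan day, 425 with brightness, 2601 with array weights and 17 on slide 1 without SD procainamide replicate 3. BN and SD controls differed at 10205 probes, against 385 with scan day and 2755 with brightness. Under procainamide they differed at 5302, against 2644 with scan day and 2901 with brightness. The BN minus SD response was called at 2952, against 0 with scan day, 6 with brightness and 9047 in Cy5 alone. Bcl11a in BN was at -0.15 in Cy5 alone and missed the threshold (limma adjusted p = 0.365), and Derl3 at 0.56 as the mean of its probes (adjusted p = 0.0798). Replicate numbers were checked for pairing: deviations of same-numbered procainamide and control arrays correlated at -0.52 to -0.10 in BN and -0.48 to 0.13 in SD. These values gave no sign that such arrays vary together, but they cannot exclude pairing. With the replicate block Cr2 in BN kept its -0.67 (limma adjusted p = 0.0122), no member's call changed, and the BN drug calls numbered 3584 and the SD drug calls 129.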
